A study of Mus musculus with 3 samples.

Results

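The regions described here are clusters of Ptbp2 HITS-CLIP reads that lie close together on 1 strand of the mouse genome. A cluster was a run of overlapping same-strand reads with at least 10 reads overlapping at its highest point, the summit, and with reads in each of the 3 display colours of the deposited file. Clusters up to 10 kb apart on the same strand were joined, and groups of 10 or more were kept, without chromosomes X and Y. This rule gave 33 groups that hold 513 of the 6509 clusters (7.88%). A further group of 18 clusters, on chromosome X, was left out by the rule, and Y had 0 such groups. The members were chosen from read counts and distances, so the numbers of clusters, their summits and their distances are a description and were given no test.

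The study made HITS-CLIP libraries of Ptbp2 from the testes of 3 male CD1 mice, 8 weeks old, with no treatment, genotype or control library named in the labels. HITS-CLIP crosslinks protein to RNA, recovers the chosen protein and sequences the RNA fragments that come with it. The file held 493620 red, 952096 green and 281981 blue reads, and no label ties a colour to a mouse, so each colour is taken as 1 library of unknown mouse, and most values pool them or are given by colour. Within 1 condition and without an input library, no test between animals was made, and reads from bound RNA cannot be told apart from reads of abundant RNA.

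Ptbp2 is a relative of the polypyrimidine tract-binding protein Ptbp1. Both bind pyrimidine-rich stretches of RNA, often in introns near alternative exons, and change which exons are joined. Ptbp2 is known mainly from neurons and from the germ cells of the testis, and the title of the series places these data in the study of alternative splicing during spermatogenesis. Many proteins of this kind contact RNA through several neighbouring sites, which is why the spacing of clusters along a strand is of interest. Positions below are mm9 positions counted from 1. Genes and sequence were not analysed here, since the reference tables at hand are for GRCm38, so tissue markers could not be read and ribosomal RNA genes were not set apart.

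The 33 groups lay on 16 chromosomes, 17 on the plus and 16 on the minus strand. Their spans ran from 2.85 to 65.2 kb, with a median of 27.3 kb. Clusters took up 8.94% of the 1004 kb that the groups spanned, and the rest lay between clusters. In all, the groups held 27874 reads on their own strand, which was 1.61% of the reads in the file (95% Wilson interval 1.59 to 1.63). The share was much alike in the 3 colours, at 1.65% of the red, 1.59% of the green and 1.64% of the blue reads. The intervals given for shares cover counting error only.

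**Figure D1:**
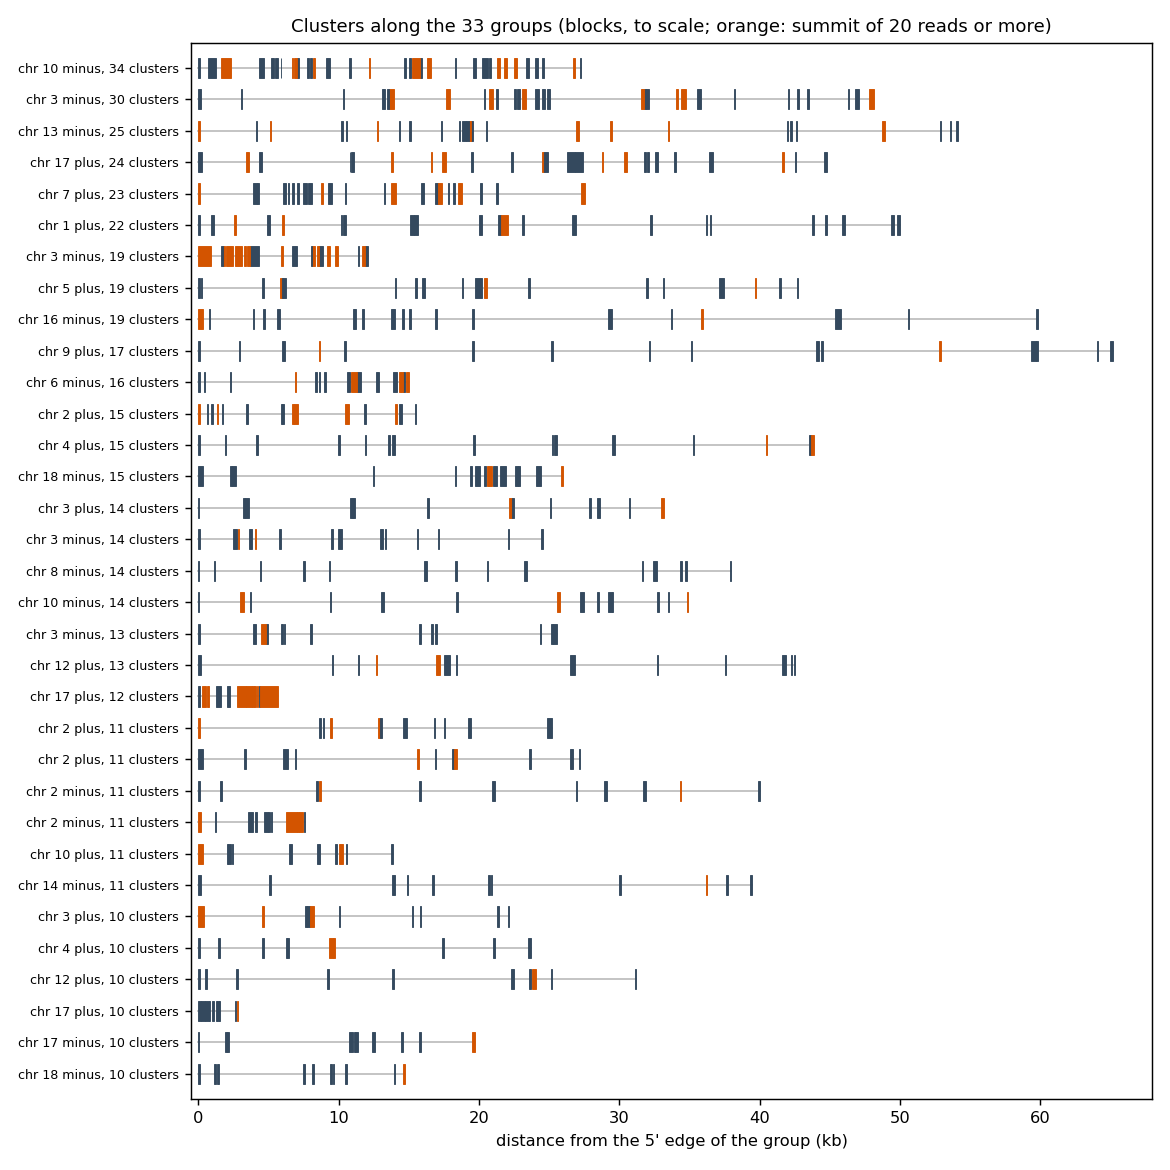
The 33 groups, drawn from their 5' edge (horizontal axis, kb), 1 line per group in order of cluster number; blocks are clusters to scale, orange where the summit held 20 reads or more. The compact groups on chromosome 17 plus (2.85 and 5.66 kb) contrast with spans of over 40 kb in 10 groups.

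The group with most clusters, chr10:18520505-18547809 on the minus strand, held 34 of them in 27.3 kb. Its clusters were 68 to 722 nt wide, with a median of 169 nt, and their summits ran from 10 to 38 reads. The tallest was the eighth from the 5' edge, 108 nt wide, with 4 red, 29 green and 7 blue reads. The widest was the third from that edge, with 44 red, 71 green and 23 blue reads over 722 nt. No single stretch dominated, since the longest of its 33 distances between neighbours was 2376 nt and made up 11.9% of their sum, the lowest share of the 33 groups. Reads also lay on the ground between these clusters, at 25.3 per kb, so that 51.3% of the bases between clusters were covered by at least 1 read.

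A pair of large groups lay next to each other on the minus strand of chromosome 3. The first, chr3:20329446-20377614, had 30 clusters over 48.2 kb, with a median distance of 615 nt and a highest summit of 36 reads, reached at 2 clusters. The second, chr3:20388045-20400149, had 19 clusters over 12.1 kb, with a median distance of 147 nt and a highest summit of 44 reads. The ground between them measured 10.4 kb, just past the joining distance, held 0 clusters and carried 11.8 reads per kb. These 2 groups are therefore separate by the rule while reads continued from one to the other.

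The smaller of that pair was among the most compact. Clusters covered 43.7% of its span, and 13.2% of its reads lay between clusters. Its first cluster from the 5' edge was 880 nt wide and held 53 red, 107 green and 37 blue reads. Later clusters of 475 and 536 nt leaned to red, with 55 red against 28 green reads and 61 red against 28 green reads. Over the whole group the green share was 46.0%, the lowest of the 33, against 55.1% of all reads in the file.

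**Figure D2:**
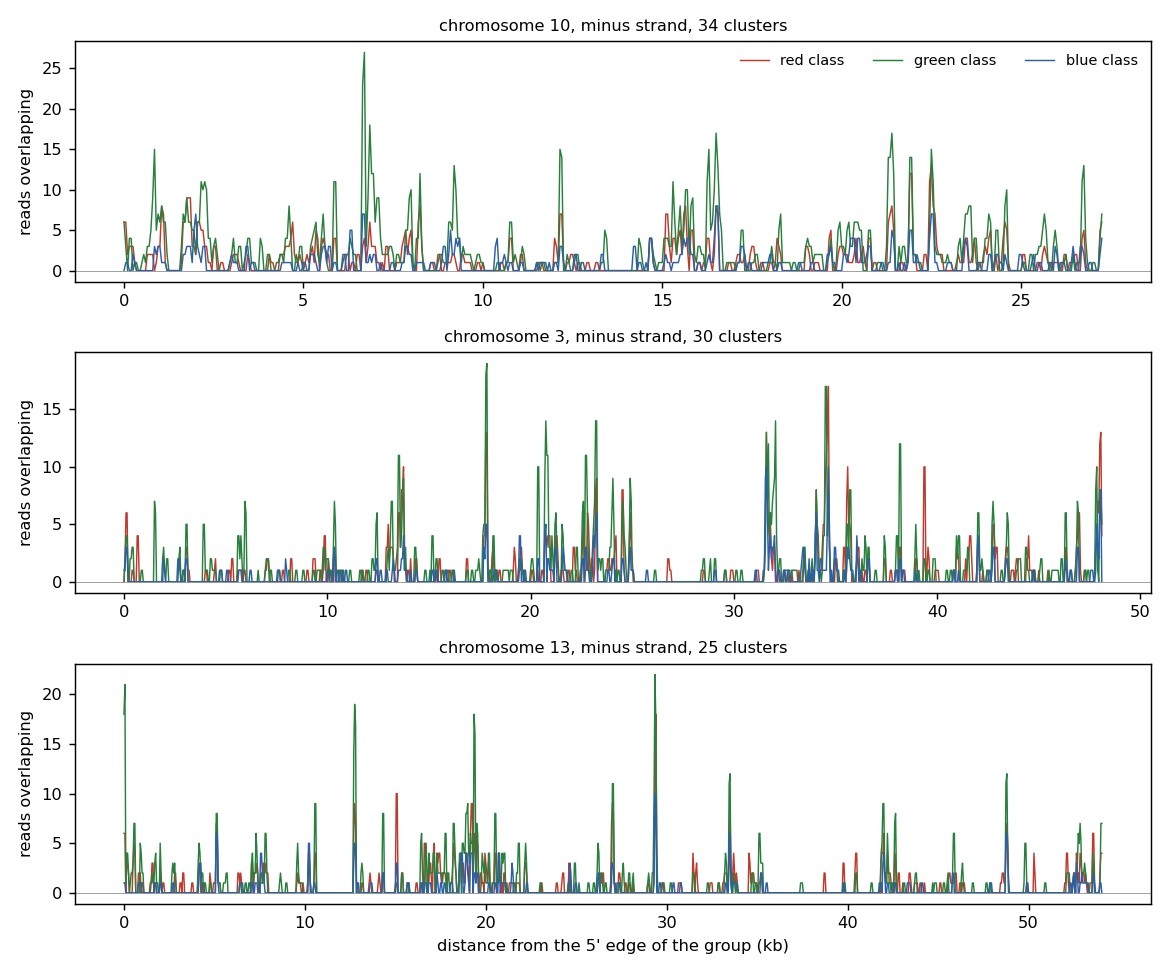
Reads overlapping along the 3 groups with most clusters, by colour class, as the highest value in bins of 50 nt (horizontal axis: kb from the 5' edge). Reads covered 51.3% of the bases between clusters in the chromosome 10 group and 27.1% in the chromosome 13 group, which had narrower peaks.

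The chromosome 13 group, chr13:50611215-50665349 on the minus strand, spread 25 clusters over 54.1 kb. Its clusters were narrow, with a median width of 107 nt and none above 265 nt, and 5.69% of its span lay in clusters. The tallest had a summit of 43 reads and held 25 red, 36 green and 11 blue reads. Density inside its clusters was 13.3 times that between them, against 6.23 times in the chromosome 10 group. The red share of this group was 36.7%, the highest of the 33.

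Plus-strand groups of similar size were found on chromosomes 17, 7 and 1. The group at chr17:34540820-34585622 had 24 clusters in 44.8 kb with a median width of 192.5 nt, and that at chr7:89321565-89349116 had 23 in 27.6 kb with a median width of 188 nt. In the chromosome 7 group the 5' edge was itself a tall cluster, 91 nt wide with a summit of 35 reads. The group at chr1:70044291-70094265 had 22 clusters and a median width of 172 nt. There 1 cluster of 535 nt held 38 red, 46 green and 16 blue reads, 100 of the 540 reads in its clusters.

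Wide spans came with both long and short distances between neighbours. The longest, chr9:73041870-73107052 on the plus strand, had 17 clusters in 65.2 kb, a median distance of 2935 nt and summits of 10 to 23 reads. Between its clusters there were 8.67 reads per kb, the lowest of the 33 groups, and a stretch of 7154 nt without a read on the strand. Density inside its clusters was 15.5 times that between them, the highest ratio of the 33. The group at chr16:12687126-12746937, minus strand, had 19 clusters in 59.8 kb and its tallest cluster, with 37 reads at the summit, at the 5' edge. The group at chr5:18736662-18779375, plus strand, also had 19, in 42.7 kb, with no summit above 23 reads. The largest median distance, 3797 nt, was that of the group at chr2:37514611-37554671 on the minus strand, with 11 clusters in 40.1 kb and 67.3% of its reads between clusters.

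At the other end, 3 groups spanned less than 10 kb. The shortest, chr17:21954077-21956929 on the plus strand, packed 10 clusters into 2.85 kb, with a median distance of 34 nt. The first 8 clusters from the 5' edge lay within 183 nt of their neighbours, and a distance of 1034 nt, 73.2% of the ground between clusters, separated them from the last 2. Its summits ran from 11 to 23 reads, its densities inside and between clusters differed by 4.07 times, the lowest ratio of the 33, and it had 0 reads on the opposite strand. A group at chr2:92372752-92380361, named here after its values were seen, had 11 clusters in 7.61 kb on the minus strand.

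The group at chr17:39979941-39985602, plus strand, had the highest summit and the highest densities of the 33. No gene was assigned to it, and whether it lies in a ribosomal RNA gene was not tested, so its reads cannot be told apart from those of a very abundant RNA. It held 12 clusters in 5.66 kb, and clusters covered 69.3% of the span. Its tallest cluster, 393 nt wide, had a summit of 203 reads and held 82 red, 352 green and 82 blue reads. The last cluster at the 3' edge was 1242 nt wide and held 220 red, 449 green and 183 blue reads. A cluster of 103 nt between these held 15 red, 41 green and 24 blue reads, all 80 of which overlapped at the summit. The next highest summit in any of the other groups was 64 reads.

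Density in that group rose along the strand, from 134 reads per kb in the first of 3 equal parts of its span to 345 and 563 reads per kb in the next 2. The 10 kb upstream carried 0 reads on the strand and the 10 kb downstream 1.5 reads per kb. This 1 group held 12.6% of all reads in the 513 clusters. The share of reads between clusters is therefore also given without it.

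Single groups marked the other extremes. The widest clusters by median, 224 nt, were in the group at chr18:67193342-67219307, minus strand, and the narrowest, 102.5 nt, in that at chr18:29583222-29597962, also on the minus strand. The lowest of the highest summits, 18 reads, was in the group at chr8:25980840-26018811, minus strand. That was also the only group in which none of the distances was 200 nt or less.

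Distances between neighbouring clusters varied over the whole range that the rule allows. The 480 distances had a median of 998.5 nt, with quartiles of 183 and 2746.5 nt. Medians within single groups ran from 34 to 3797 nt, and in 20 groups the median exceeded 1 kb. Neighbours were at most 10 nt apart in 35 cases (7.29%), found in 19 of the groups, and 11 to 200 nt apart in 94 (19.6%). At the long end, 61 distances (12.7%) were over 5 kb. In groups of 2 to 9 clusters the long distances made up 21.7% and the median was 1582 nt. The rule favours short distances where many clusters must be joined, so this difference is a description.

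Of the 35 shortest distances, 11 were of 0 nt, where 1 cluster ended at the base before the next began. When clusters up to 50 nt apart were merged before joining, a step chosen after seeing the data, 26 groups with 393 clusters were found. The median distance was then 1395 nt. The 26 groups met 26 of the 33, which held 439 of the 513 clusters.

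Group size had no natural break at 10 clusters. There were 9 groups of 9 clusters, just outside the rule, with spans of 9.62 to 29.3 kb and a median of 11.6 reads per kb between clusters. The 6 groups of 10 spanned 2.85 to 31.2 kb, with a median of 13.7 reads per kb between clusters. Several groups continued past their bounds. The other neighbours within 100 kb on a strand, listed after their values were seen, were 3 groups on chromosome 2 plus between 17988832 and 18108700, 2 on chromosome 4 plus between 110253212 and 110354961, and 2 on chromosome 12 plus between 41922076 and 42084078. The ground between these held 0 to 9 clusters and 9.19 to 16.1 reads per kb.

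Members had wide bases and ordinary cores. Their width had a median of 144 nt (quartiles 106 and 209), against 129 nt in groups of 2 to 9 and 105 nt for single clusters, which have no same-strand cluster within 10 kb. Among members 49 of 513 (9.55%) were 300 nt wide or more, against 6.38% in groups of 2 to 9 and 2.81% of single clusters. The share was 5.01% of all 6462 clusters outside X and Y, members included. The order held within classes of summit height, which the rule bears on. With 10 to 12 reads at the summit the medians were 132.5, 116.5 and 99 nt, with 13 to 19 reads 140, 129.5 and 106 nt, and with 20 or more 185, 159 and 119 nt.

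The width of the stretch where coverage stayed at 50% or more of the summit did not follow that order. Its median was 52 nt in members, 52 nt in groups of 2 to 9 and 51 nt in single clusters. Within the 3 classes of summit height the medians of all 3 kinds lay between 51 and 53 nt. These values are near the median length of the reads, which was 46.5 nt for the typical member. Members had a median of 57 further reads on their strand within 1 kb on either side, against 32 and 11 for the other 2 kinds. These counts include reads of neighbouring clusters, which single clusters lack by definition, so their order is largely set by the rule. The part of local read density in the width was not tested.

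**Figure D3:**
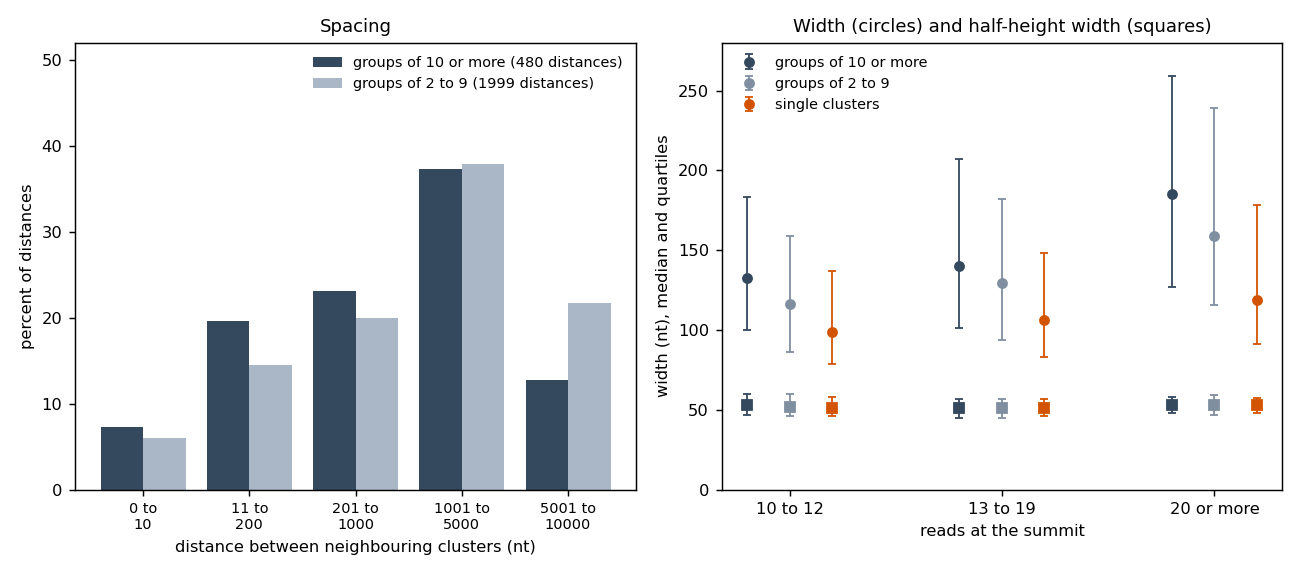
Left, the share of distances between neighbouring clusters by length (percent), for groups of 10 or more and of 2 to 9. Right, medians and quartiles of full width (circles) and of the width at 50% of the summit (squares) in nt, by reads at the summit; full widths differ between kinds of cluster and the squares stay between 51 and 53 nt.

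Summits were only slightly higher than elsewhere. The median member had 14 reads at the summit and 20 reads in all, against 13 and 15 for single clusters. A summit of 20 reads or more was reached by 121 members (23.6%), against 19.1% of all clusters outside X and Y, and 32 of the 33 groups had at least 1. At the lower limit, 69 members (13.5%) had a summit of exactly 10 reads. The summit lay near the middle of the cluster, with a median place at 0.495 of the width from the 5' edge.

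Each class had its own highest point within a member. The rule asks for all 3 classes in 1 run of overlapping reads, so short distances between these points are largely set by it, and 173 of the 513 members held at most 2 blue reads. Between the red and the green high point of a member the median distance was 10 nt (quartiles 4 and 27), between red and blue 13 nt and between green and blue 12 nt. These medians were 9, 12 and 10.5 nt in groups of 2 to 9, and 7.5, 9.5 and 8 nt in single clusters. With summits of 20 reads or more, where each class had more reads, members had medians of 6, 12 and 9 nt. Groups of 2 to 9 then had 7.5, 10.5 and 10 nt and single clusters 6, 7 and 6.5 nt. At that height members had the largest median only between red and blue. Members are also wider, and the part of width in these distances was not tested. No test was made, because clusters of 1 library are not replicates.

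Reads lay between clusters as well as in them. Of the 27874 reads, 12865 (46.2%, 95% Wilson interval 45.6 to 46.7) fell between clusters, and 49.4% did so without the chromosome 17 group of the highest summit. In 19 of the 33 groups more than 50% of the reads lay between clusters. By class the share was 46.7% of the red, 46.6% of the green and 43.7% of the blue reads.

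These reads were thin but widespread. Across groups the density between clusters had a median of 13.9 reads per kb and ran from 8.67 to 44.3, against a median of 150.6 and a range of 127 to 482 inside clusters. The average over the autosomes was 0.352 reads per kb on each strand, and the median group stood at 39.4 times this average. The groups were chosen for their many clusters and the average takes in all autosomal ground, so a high multiple is largely set by the rule. A median of 31.5% of the bases between clusters carried a read, with a range of 21.2% to 57.6%. Of the 240 distances over 1 kb, 1 held no read.

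**Figure D4:**
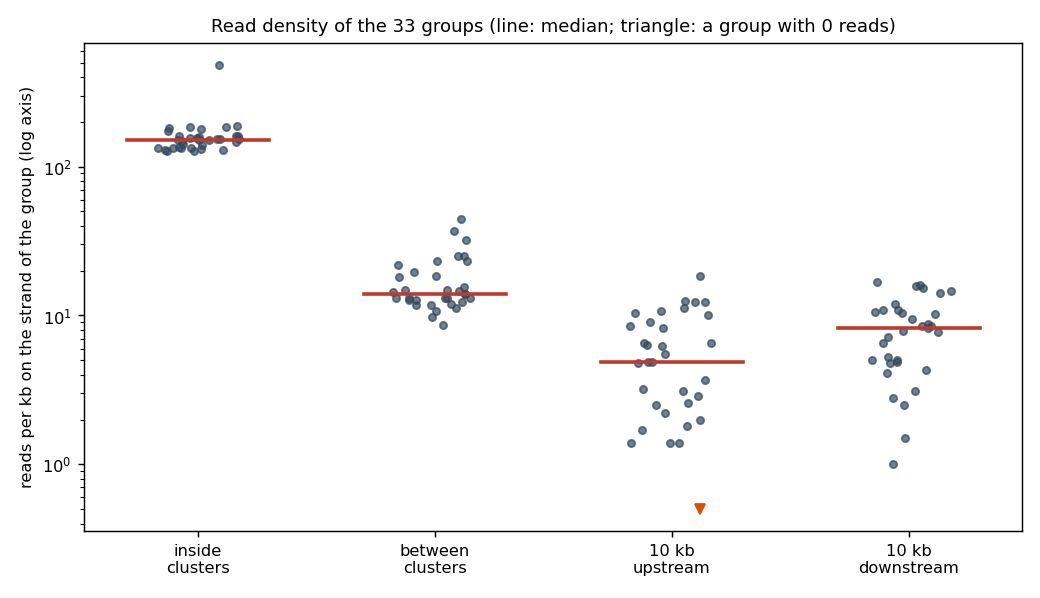
Reads per kb on the group's strand (log axis) for each of the 33 groups, inside clusters, between clusters, and in the 10 kb upstream and downstream; red lines are medians and the triangle is a group with 0 reads. Medians are 150.6, 13.9, 4.9 and 8.3 reads per kb, with overlap between the last 3 places. The rule leaves the flanks without a cluster.

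The ratio of density inside to density between clusters had a median of 10.4 (range 4.07 to 15.5) and exceeded 10 in 20 groups. The rule chose clusters for their height, so a ratio above 1 is fixed by it. Runs of reads below the cluster rule lay in the intervals, 4424 in all. Of these, 1946 were single reads, 1806 had a summit of 2 to 4 reads and 633 a summit of 5 to 9. A further 39 had a summit of 10 or more and lacked a class, and 36 of them had no blue read. The tallest of these, chr10:119812325-119812452 on the plus strand, held 11 red, 23 green and 0 blue reads with 33 at the summit. It lay in a group of 11 clusters whose own highest summit was 29 reads, and is named after its values were seen.

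Density between clusters fell with distance from them. In the 99 distances of 3200 nt or more, which contribute to every class of distance from a cluster, there were 25.7 reads per kb at 25 to 50 nt from the nearest cluster, 16.4 at 200 to 400 nt and 9.15 beyond 1600 nt. Density at 25 to 50 nt stood above that beyond 1600 nt by 2.69 times in red, 2.99 times in green and 2.27 times in blue reads. The longest of the 99 distances weigh most in the values beyond 1600 nt. Within 25 nt of a cluster there were 5.66 reads per kb, because a read centred there would nearly always overlap the cluster and be counted in it.

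Short intervals were denser than long ones. Distances over 200 and up to 1000 nt carried 24.2 reads per kb, those up to 5 kb 15.5 and those over 5 kb 11.01. In groups of 2 to 9 clusters the same classes carried 21.3, 11.8 and 7.91 reads per kb. Across the 33 groups, density between clusters was lower where the median distance was longer, with a Spearman rho of -0.76, and of -0.74 without the group of the highest summit. This is a description over groups that share their libraries, and the length of the intervals enters both measures.

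Density between clusters was near that of the larger groups outside the rule. Over the 1019 groups of 2 to 9 with ground between clusters, its median was 8.85 reads per kb (quartiles 5.06 and 14.6). By size the median was 6.83 in pairs, 9.53 in groups of 3, 11.9 in groups of 4 and 10.7 in groups of 5. It was 12.4, 11.9, 13.3 and 11.6 in groups of 6, 7, 8 and 9, against 13.9 here, so it did not rise steadily with size. The 10 kb on each side of single clusters had a median of 3 reads per kb (quartiles 1.6 and 4.65). Ranges overlapped between all 3 kinds, and dense coverage makes it more likely that runs reach 10 reads, so group size and density between clusters are not independent.

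Reads went on past the outer clusters at lower density in most groups. The 10 kb upstream had a median of 4.9 reads per kb and was below the ground between clusters in 30 of 33 groups. The 10 kb downstream had a median of 8.3 and was below it in 28 of 33. By the rule a group ends where no cluster follows on its strand within 10 kb. Ground between clusters has a cluster at both ends, so lower flanks are largely set by the rule. Within 2 kb of the outer clusters the medians were 9 upstream and 10.5 downstream. At 2 to 5 kb they were 5 and 5.67, at 5 to 10 kb 2.4 and 8.4, and at 20 to 30 kb 2.6 and 6, so the downstream side did not fall steadily. At 40 to 50 kb they were 0 and 3.6 reads per kb, with wide ranges that reached 33.4 and 42.9. The upstream side was the denser one in 13 groups.

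No common slope ran along the groups. Reads per kb in the first of 3 equal parts of the span exceeded those in the last in 14 of 33 groups, and the median log2 ratio of the first to the last was -0.19. The group at chr6:81844434-81859466, minus strand, had the steepest rise towards its 3' edge, with 17.0 reads per kb in the first part and 88.0 in the last. The chromosome 16 group ran the other way, from 33.1 to 10.8 reads per kb. The chromosome 6 group is named after its values were seen.

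Few reads in the groups lay on the other strand. Within their spans 97 of 27971 reads lay on the opposite strand (0.347%, 95% Wilson interval 0.284 to 0.423), and within the bounds of the members 13 of 15022 (0.0865%, interval 0.0506 to 0.148). Within cluster bounds the same share was 0.0448% in groups of 2 to 9 and 0.0382% in single clusters, with intervals up to 0.0633% and 0.0579%. The chromosome 17 group of the highest summit gave 8 of the 13 reads, and without it the share in members was 5 of 13123 (0.0381%). No cluster of the opposite strand lay in any span. The 4 groups with most of them held 73 of the 97, namely the chromosome 12 group at 42052918 to 42084078 with 25 reads, the larger chromosome 3 group with 24, the chromosome 10 group with 13 and the tallest chromosome 17 group with 11. In 18 groups the count was 0, which allows a share of up to 0.248% in the deepest of these, with 1210 reads, and of up to 1.12% in the shallowest, with 268.

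The mixture of colours in the groups was near that of the file. Red made up 29.3% of the reads in the groups against 28.6% of the file, green 54.2% against 55.1% and blue 16.6% against 16.3%. Single groups varied more, from 21.9% to 36.7% in red, from 46.0% to 62.6% in green and from 13.4% to 20.7% in blue. Blue reads made up 17.3% of the reads in members (95% Wilson interval 16.7 to 17.9) and 15.7% of those between them (15.1 to 16.3). Every cluster had to hold a blue read, which raises the first of these shares by the rule.

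To read a class that had no part in choosing the regions, groups were called from the other 2 classes by the same limits and then measured in the class left out. Without red reads there were 13 groups with 180 clusters, and the red reads stood at 64.2 per kb inside those clusters, 7.41 per kb between them and 2.67 per kb in the 10 kb on each side. Without green reads 2 groups with 24 clusters were found, with 235.7 green reads per kb inside and 27.9 between clusters. The chromosome 17 group of the highest summit gave 1002 of the 1258 green reads in these clusters, at 379.7 per kb, and the other, on chromosome 3, had 94.8 per kb inside and 23.9 between. Without blue reads there were 25 groups with 375 clusters, with 28.8 blue reads per kb inside and 2.83 between.

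The class left out was thus denser inside than between clusters by 8.67 times for red, 8.44 times for green and 10.2 times for blue. Single groups ranged from 3.69 to 11.5 times in red, 3.98 to 9.81 times in green and 3.80 to 13.4 times in blue. The ratio was above 1 in all 13, 2 and 25 groups. Of the groups called without blue, 22 met the 33, as did all those called without red or green. A read of the class left out was lacking in 1 of 180, 0 of 24 and 47 of 375 clusters. No pair of reads in the file had the same ends and strand, also between colours. A read present in several libraries would then stand under 1 colour only, which also makes summit heights lower bounds.

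**Figure D5:**
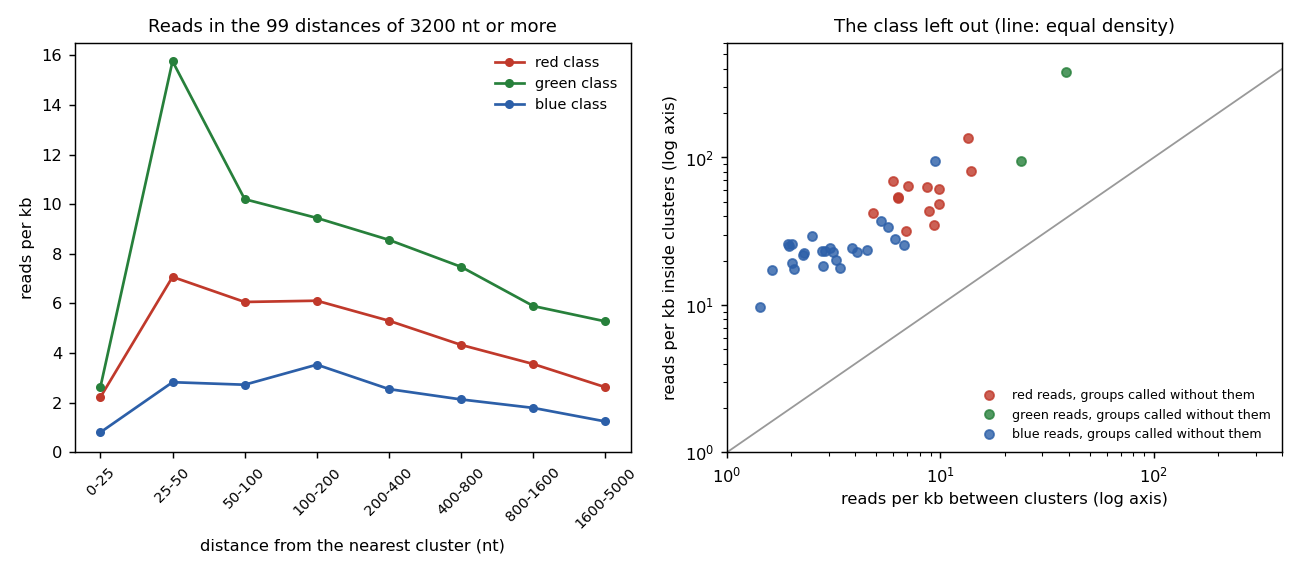
Left, reads per kb by distance from the nearest cluster (nt) in the 99 longest distances, by class; each class falls from 100 nt outwards. Right, reads per kb of the class left out, inside against between clusters of groups called without it (both axes log), 1 point per group; all 40 points lie above the line of equal density.

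Fewer clusters met the rule with fewer reads. When reads of a class that shared a 5' end were reduced to 1, 324 of the 513 members (63.2%) still overlapped a cluster. Within the bounds of the 33 groups, 11 still held 10 or more clusters, without joining them anew. With joining up to 10 kb, 8 groups with 139 clusters were found. Within its old bounds the smaller chromosome 3 group then held 19 clusters, the chromosome 10 group 26 and the shortest chromosome 17 group 6. Of all 6509 clusters, 55.1% still overlapped a cluster. Leaving out the red class kept 306 members (59.6%, against 53.9% of all clusters), leaving out green 132 (25.7% against 20.5%) and leaving out blue 385 (75.05% against 67.7%). The members' share was the higher one each time, a difference that was not tested. Without green 3 groups still had 10 or more clusters within their bounds, which were the larger chromosome 3 group with 10, the smaller with 12 and the tallest chromosome 17 group with 12.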

How the data were processed

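Ptbp2 HITS-CLIP reads of 3 mice were analysed. Bowtie and the build mm9 are named in the submitters' processing notes, without version or settings. How repeats and duplicates were handled is not given in those notes. In the deposited file each line is 1 read with its ends, strand and colour, and the authors' score column, 0 throughout, was not used. The depth was 281981 to 952096 reads per colour.

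Runs, clusters and groups were called as the report states. Reads were counted by their midpoint, a cluster held all its own reads, and of reads sharing a 5' end and class the longest was kept. Python 3.11.15, numpy 2.4.6, pandas 2.3.3, scipy 1.17.1 and matplotlib 3.10.9 were used. On simulated data made from 49080 reads of chromosome 19, placed at random, 20 of 20 planted groups were recovered and 0 were found before planting. The planted clusters met the limits of the rule by construction. This checks the counting only and does not measure how well groups are found in the real reads.

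Members, gene lists and tests were chosen with earlier results of these data known. Groups named are the 10 with most clusters and those highest or lowest in span, distance, width, summit, density between clusters and ratio. Motifs and genes, with the planned marker lists, were not analysed here, for lack of mm9 sequence and annotation. Alternatives changed the summit, classes, joining distance, group size, reads per 5' end and the class left out.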

Additional observations from a re-analysis of the deposited data

How the results depend on the processing

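With at least 5 reads at the summit there were 225 groups with 4025 clusters, and with at least 20 reads 2 groups with 24 clusters. Joining up to 5 kb gave 16 groups with 253 clusters, and joining up to 20 kb gave 47 groups with 849 clusters. Keeping 1 read for each 5' end in a class left 8 groups with 139 clusters. A minimum of 8 clusters gave 56 groups, and one of 15 gave 14 groups with 293 clusters. Leaving out 1 colour gave 2 groups with 24 clusters (no green) to 25 groups with 375 clusters (no blue), against 33 and 513.

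The median distance, 998.5 nt, was 529.5 nt with summits of 20 reads, 415 and 1733.5 nt with joining up to 5 and 20 kb, 766 nt with single 5' ends, and 106.5 to 815 nt without 1 colour. It was 1395 nt after merging clusters up to 50 nt apart, which was chosen after seeing the data. The median width, 144 nt, was 114 and 201.5 nt with summits of 5 and 20 reads, 164 and 136 nt with joining up to 5 and 20 kb, 164 nt with single 5' ends, and 136 to 149 nt without 1 colour.

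The density between clusters, 13.9 reads per kb, was 8.62 and 41.1 with summits of 5 and 20 reads, 22.5 and 11.3 with joining up to 5 and 20 kb, and 12.5 to 21.3 without 1 colour. The ratio of densities, 10.4, was 12.8 and 5.06, then 8.17 and 13.1, under the same settings, 7.99 with single 5' ends and 8.53 to 12.2 without 1 colour. The share of reads between clusters, 46.2%, was 48.2% and 48.0%, then 31.0% and 58.0%, 48.9% with single 5' ends and 15.1% to 45.3% without 1 colour. It was 50.1% after merging and 49.4% without the group of the highest summit, a setting also chosen after seeing the data. The opposite-strand share, 0.347%, was 0.0865% within cluster bounds. For all of these the cause was not tested, although fewer reads or a shorter joining distance lower the number of groups by construction.

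Of the values recomputed, 54 moved and 24 did not. A count moved if it changed by over 1.5 times, and another value if it left its 95% interval. Every value with clusters of at least 2 colours, and the split by cluster order, did not move. With at least 2 colours there were 48 groups with 728 clusters, against 33 and 513, which stayed within the limit of 1.5 times. No paired analysis was possible because only 1 condition was sampled. The alternative for motif density was not run, for lack of mm9 sequence. Of the 39 tall runs left between clusters, 36 lacked blue, the class with fewest reads, and 4 lacked red; outside the mitochondrial chromosome 1642 of 8151 tall runs lacked a class. The part of depth in this was not tested.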
